A study of Sus scrofa with 24 samples.

Results

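Shelterin is the protein complex that coats the telomeres, the repeated sequences at chromosome ends. The RNA of its genes was examined here in pig liver under testosterone and nandrolone esters. Of the 6 listed genes, 5 (TERF1, TERF2, TERF2IP, TINF2 and ACD) were found by symbol among the 13463 genes measured, and POT1 was not analysed here. TERF2 was put on the list because its RNA was higher with Sustanon than in the controls of these same libraries, and the other genes because they belong to the same complex. The values of TERF2 in every comparison that uses Sustanon or control libraries are therefore a description without a test, and TERF2 is tested only within the Myodin libraries.

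The data were counts of poly-A RNA from 24 liver libraries, 1 per pig, with 8 per treatment. Sustanon, a mixture of testosterone esters, was injected into muscle at 4 mg/kg from a 250 mg/ml preparation, and Myodin, a nandrolone ester, at 5 mg/kg from a 25 mg/ml preparation. The control pigs were untreated. The Sustanon group held 3 castrated boars, 3 sows and 2 uncastrated boars, the Myodin group 2, 3 and 3 of these, and the control group 3, 3 and 2. The labels give no age, litter or sequencing batch, each class in a treatment is 2 or 3 pigs, and the p-values measure the spread between these pigs. Total counts ran from 9267780 to 14017276 per library. ALB, the gene of serum albumin and the defining product of hepatocytes, had a median of 127800 CPM (counts per 1000000 counts of a library) and a lowest value of 58490 CPM over the 24 libraries. The skeletal muscle markers MYH7 and CKM had medians of 0.0985 and 0.619 CPM, and MYH7 was at 0 in 7 libraries.

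In 3 of the 8 control libraries the Y-linked counts went against the labelled class. The library labelled control castrated boar 15 had 1 count of EIF1AY and 0 of KDM5D, while the libraries labelled control sow 16 and control sow 18 had 476 and 434 counts of EIF1AY and 35 and 95 of KDM5D. Castrated boars and sows are pooled below as pigs without testes, by label. An exchange of labels among these 6 control libraries alone cannot give the counts, since 4 of the 6 hold more than 1 EIF1AY count and 3 are labelled castrated boar, and where the libraries came from was not tested. TERF2 values of the comparisons that use the 3 libraries are also given without them, leaving 3 control pigs labelled as without testes. Where sows are left out below, this too is by label. Control sows 16 and 18 then go and control castrated boar 15 stays, so such values do not separate the sexes in the controls. The deposited column of Sustanon sow 6 carries the covariate code of the Sustanon castrated boars and not that of the other sows, and its class was taken from its title.

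As background, TERF1 and TERF2 bind double-stranded telomere repeats. TERF2 holds the chromosome end in a loop that hides it from the cell's DNA break response, and it recruits TERF2IP (RAP1). TINF2 (TIN2) is the hub that links both of these proteins to ACD (TPP1), which in turn carries POT1, the protein on the single-stranded end. ACD also brings telomerase to the end. Liver cells divide rarely in the adult.

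The genes lie at separate places in the Sscrofa11.1 assembly, the build that the submitters' processing notes name. TERF2 (ENSSSCG00000002762) spans chr6:17605748-17631795, TERF2IP (ENSSSCG00000002703) chr6:12047409-12057451 and ACD (ENSSSCG00000029590) chr6:28277649-28280409. TERF1 (ENSSSCG00000006184) spans chr4:62797244-62831459 and TINF2 (ENSSSCG00000001994) chr7:75056790-75067895. The study also carried TERF2 into a PCR assay, and its primer pair is shown here because it defines the stretch of TERF2 RNA that the assay reads. Both are written 5′ to 3′, in lower case throughout.
TERF2 forward: ggatgatgcagagccctacct
TERF2 reverse: agtggaggactcagatttcaaagc
The forward primer has 21 bases and the reverse primer 24.

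The first comparison asks how the shelterin genes differ between Sustanon and control pigs. In the control group TERF2 was at 50.3, 54.5 and 57.0 CPM in the castrated boars, at 49.1, 48.1 and 47.0 CPM in the sows, and at 124 and 115 CPM in the uncastrated boars. The 6 control pigs without testes thus lay close together, and both uncastrated control boars lay far above them. With Sustanon, TERF2 was at 128, 153 and 92.3 CPM in the castrated boars, at 90.0, 162 and 108 CPM in the sows, and at 125 and 129 CPM in the uncastrated boars. Every Sustanon library lay above all 6 control pigs without testes, and 5 of 8 lay above the uncastrated control boars too.

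**Figure D1:**
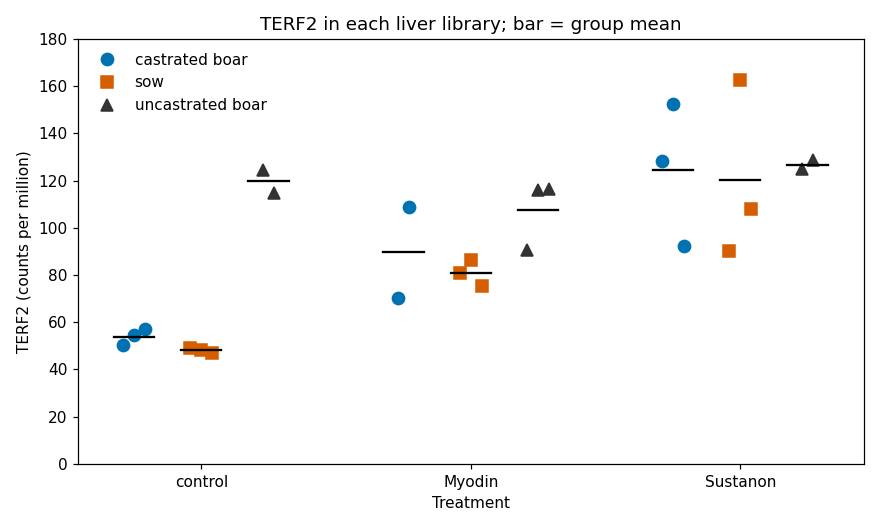
TERF2 in CPM (vertical axis) in each of the 24 liver libraries, by treatment and class; each symbol is 1 pig and each bar the mean of its group. The 6 control castrated boars and sows sit between 47.0 and 57.0, and all the other libraries at 70.5 or above.

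Over all classes the mean of TERF2 was 123 CPM with Sustanon (SD 26.1, 8 pigs) and 68.2 CPM in the controls (SD 32.1, 8 pigs), a fitted difference of 0.86 on the log2 scale (SE 0.20, 1.81-fold). By this comparison TERF2 was chosen, and 5.07% of the 8279 genes tested passed an adjusted p under 0.05 in it (edgeR's quasi-likelihood test with Benjamini-Hochberg adjustment). That background depends on the libraries used. Over all classes it fell to 0 genes when the 3 control libraries with conflicting Y-linked counts were left out. In that fit 1199 genes had an unadjusted p under 0.05, and the TERF2 difference was 0.65. Its controls were 2 uncastrated boars and 3 other pigs. In castrated boars and sows only, without the same 3 libraries, 198 genes passed. Why these counts differ was not tested.

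The Sustanon difference in TERF2 was 2.34-fold in the pigs without testes (1.22 on the log2 scale, 6 against 6 pigs) and 1.06-fold in uncastrated boars (0.08, 2 against 2). In castrated boars and sows together the mean of TERF2 was 122 CPM for 6 Sustanon pigs (SD 30.7) and 51.0 CPM for 6 control pigs (SD 3.91), with no overlap. Without the 3 libraries the control mean was 51.0 CPM (SD 3.22, 3 pigs), and the fitted difference in these classes was 1.26, as it was with them. Of the genes tested, 2.04% had all Sustanon pigs above all control pigs in these classes, and nothing is read from that share, since TERF2 was chosen on these libraries. The fitted Sustanon effect was lower in uncastrated boars than in the other pigs by 1.18 on the log2 scale (SE 0.27), and by 1.17 without the 3 libraries. For that difference of effects 0.0457% of 8754 genes passed the test, and TERF2 again has no test.

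None of the other 4 shelterin genes passed the test with Sustanon, a count of 0 that is near the background of 5.07% of 8279 genes. TERF1, which also binds double-stranded repeats, was at 15.2 ± 2.31 CPM with Sustanon and 15.6 ± 2.5 CPM in the controls (SD, 8 pigs each). Its difference was -0.03 on the log2 scale (95% interval -0.27 to 0.20, adjusted p = 0.912). TERF2IP, the partner that TERF2 recruits, was at 65.9 ± 5.81 against 64.1 ± 6.62 CPM, a difference of 0.04 (-0.16 to 0.24, adjusted p = 0.867).

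TINF2, the hub, was at 85.8 ± 8.25 CPM with Sustanon and 87.2 ± 8.96 CPM in the controls, a difference of -0.02 (-0.19 to 0.14, adjusted p = 0.912). ACD was at 14.2 ± 2.14 against 15.03 ± 2.90 CPM, a difference of -0.08 (-0.37 to 0.20, adjusted p = 0.806). Their median difference was -0.03, beside -0.01 over all genes tested. The difference of the Sustanon effect between uncastrated boars and the other pigs passed the test in none of them, and TERF1 had the largest value (0.47, SE 0.25, adjusted p = 0.738).

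**Figure D2:**
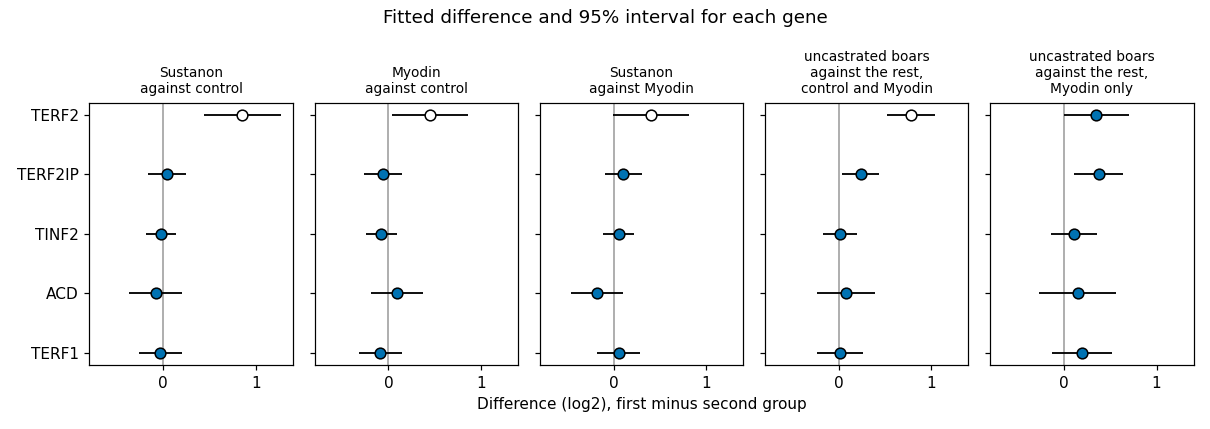
Fitted log2 difference (horizontal axis, first minus second group) with its 95% interval for each shelterin gene in 5 comparisons. Open points are TERF2 in comparisons that use libraries it was chosen on (0.78 in uncastrated boars against the rest, control and Myodin libraries), and blue points were tested and did not pass. The intervals of the open points make no allowance for that choice and are not tests.

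The next comparison asks the same of Myodin. TERF2 was at 70.5 and 109 CPM in the castrated boars, at 80.7, 86.5 and 75.5 CPM in the sows, and at 90.5, 116 and 116 CPM in the uncastrated boars given Myodin. Those pigs without testes lay above all 6 control pigs without testes, and the uncastrated boars overlapped the control boars. Over all classes the Myodin group averaged 93.1 ± 18.3 CPM (SD, n = 8), a difference from control of 0.45 (SE 0.20, 95% interval 0.04 to 0.86). Without the 3 control libraries the difference was 0.25. The control libraries are those of the comparison that chose TERF2, so TERF2 has no test here. Of the genes tested, 0.0% passed (0 of 8279 by edgeR, 597 at an unadjusted p under 0.05, and 9 genes by DESeq2). The other 4 shelterin genes lay between -0.09 (TERF1) and 0.09 (ACD), with adjusted p from 0.907 to 0.95.

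Castrated boars and sows alone were a planned subset of this comparison, made a contrast of its own after the data were seen. It shares the same controls. TERF2 there had a mean of 84.4 CPM in 5 Myodin pigs (SD 14.95) and 51.0 CPM in 6 control pigs (SD 3.91). The difference was 0.72 (SE 0.15, 1.65-fold, 95% interval 0.41 to 1.04), higher in 5 of 5 pigs than in any control pig of these classes. All pigs of the first group lay above all of the second for 0.927% of the genes tested. Nothing is read from that share, since TERF2 was chosen on these controls. Without the 3 control libraries the difference was 0.73. TERF1, TERF2IP, TINF2 and ACD did not pass there, where 0.0963% of 8307 genes did by edgeR (-0.21, -0.19, -0.14 and 0.04, adjusted p from 0.532 to 0.951).

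Between the 2 steroids TERF2 was at 123 ± 26.1 and 93.1 ± 18.3 CPM, respectively (SD, 8 pigs per steroid). The difference was 0.41 (SE 0.20, 95% interval -0.01 to 0.82), and the groups overlapped, with 5 of 8 Sustanon libraries above all Myodin libraries. The doses were not matched, and TERF2 has no test here. The other 4 genes lay between -0.18 (ACD) and 0.10 (TERF2IP), with adjusted p from 0.52 to 0.838, where 0.664% of all genes passed.

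The classes were then compared in the libraries without Sustanon. The mean of TERF2 was 112 CPM in the 5 uncastrated boars (SD 12.8) and 66.2 CPM in the 11 pigs without testes (SD 20.03). Of the 5 boars, 4 lay above all 11 other pigs, and Myodin boar 22 at 90.5 CPM lay below Myodin castrated boar 9 at 109 CPM. The mean of the control and the Myodin difference was 0.78 (SE 0.13, 1.72-fold, 95% interval 0.52 to 1.04). The value was 0.78 without the 3 control libraries and 0.71 without sows. Its control libraries are those of the comparison that chose TERF2, so TERF2 has no test here, and 4.95% of all 8754 genes passed.

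The difference was then read within each treatment. Among control libraries alone the difference was 1.22, with and without the 3 libraries, and both boars lay above all 6 other pigs, as they did for 10.2% of genes. All 8 of these libraries were used in choosing TERF2. Among Myodin libraries, which share no library with the comparison that chose TERF2, the 3 boars averaged 108 ± 14.8 CPM and the 5 other pigs 84.4 ± 14.95 CPM (SD). Of these boars, 2 of 3 lay above all the others. The difference of 0.35 (SE 0.17, 95% interval -0.003 to 0.70) had an adjusted p of 0.263, where 2.43% of genes passed. Its SE came from the fit over all 24 libraries. The study's own clustering, from which it took TERF2, also included the Myodin pigs. The fitted boar difference in control libraries minus that in Myodin libraries was 0.87 (SE 0.26, 95% interval 0.34 to 1.397). This contrast, also added after the data were seen, uses those control libraries too and gives TERF2 no test, and 0.0914% of all genes passed in it. Without the 3 libraries the value was again 0.87.

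TERF2IP did not pass in the boar comparisons. In the Myodin libraries it was at 77.8, 68.3 and 69.1 CPM in the uncastrated boars, at 64.6 and 62.1 CPM in the castrated boars, and at 42.5, 54.3 and 52.4 CPM in the sows. The 3 boars lay above all 5 other pigs, as they did for 3.85% of genes. The difference was 0.38 (SE 0.13, 95% interval 0.11 to 0.64, adjusted p = 0.111), and it was 0.19 when sows were left out (adjusted p = 0.622). In the control libraries it was at 74.8 and 60.6 CPM in the boars, which overlapped the 58.2 to 73.7 CPM of the other pigs. With the control libraries included it was 0.24 (SE 0.10, adjusted p = 0.159), from means of 70.1 CPM in 5 boars (SD 6.64) and 59.4 CPM in 11 other pigs (SD 7.99).

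TERF1, TINF2 and ACD did not pass in the boar comparison without Sustanon, at 0.01, 0.01 and 0.08 (adjusted p from 0.818 to 0.971), and at 0.20, 0.11 and 0.15 within the Myodin libraries (adjusted p from 0.508 to 0.715). In the boar comparison 0 of the 4 genes other than TERF2 passed, where 4.95% of all genes did, and their median was 0.04 beside -0.004 over all genes. Within the Myodin libraries 0 of 5 passed, where 2.43% of all genes did, with a median of 0.20 beside 0.0006.

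Levels can be set between genes only on a scale corrected for transcript length, here TPM (transcripts per 1000000 transcripts). Over all 24 libraries the order by mean level was TERF2 (50.6 ± 18.8 TPM), TERF2IP (45.6 ± 7.26), TINF2 (26.5 ± 2.97), ACD (17.3 ± 3.10) and TERF1 (11.6 ± 2.02, SD). The place of TERF2 depended on the pigs. TERF2 lay below TERF2IP in all 6 control pigs without testes, at 26.5 ± 1.78 against 43.8 ± 3.72 TPM, and above it in all 8 Sustanon pigs, by 18.4 ± 13.8 TPM (SD of the differences). The 2 genes did not differ beyond their spread over all libraries (16 of 24 with TERF2 higher). Below them the order was steadier, with TERF2IP above TINF2 in 23 of 24 libraries, TINF2 above ACD in 23 and ACD above TERF1 in 22.

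Over all 24 libraries the coefficient of variation in TPM was 37.0% for TERF2, 15.9% for TERF2IP, 17.9% for ACD, 17.3% for TERF1 and 11.2% for TINF2, where the value of TERF2 holds the difference it was chosen for. Within the 6 control castrated boars and sows TERF2 had the lowest, 6.72%, against 8.48% for TERF2IP and up to 23.4% for ACD. Its share of the summed TPM of the 5 genes was 21.1% ± 1.36 in control castrated boars and sows (SD, n = 6) and 38.4% ± 1.11 in control boars (n = 2). It was 33.0% ± 3.49 with Myodin and 38.9% ± 4.86 with Sustanon (n = 8 each). The ratio of TERF2 to TERF1, the other protein on double-stranded repeats, was 2.31 ± 0.66 in control castrated boars and sows, 5.82 ± 0.66 in control boars, 4.39 ± 0.57 with Myodin and 5.69 ± 1.21 with Sustanon. Without the 3 libraries the share in control castrated boars and sows was 21.5% ± 0.96 and the ratio 2.12 ± 0.28 (SD, n = 3). These shares move with TERF2 itself and add no test.

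**Figure D3:**
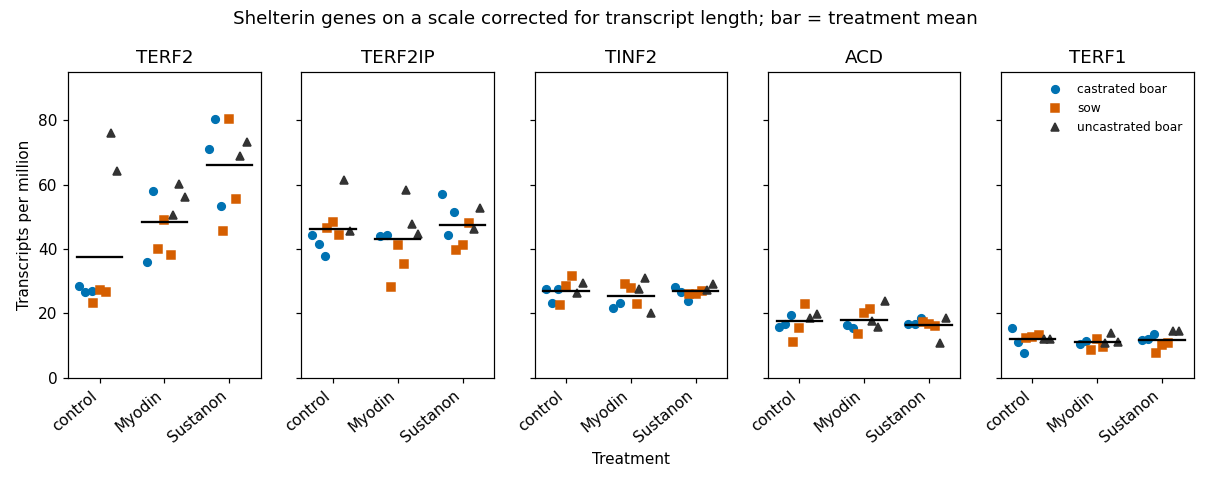
Level of each shelterin gene in TPM (vertical axis) by treatment; each symbol is 1 pig, marked by class, and each bar the mean of 8 libraries. TERF2 ranges from 23.1 to 80.3, while TERF1 stays between 7.54 and 15.5.

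Within the complex the other genes were only weakly related to TERF2 across libraries. TERF2 had a Pearson r of 0.24 with TERF2IP and of -0.02 to -0.03 with TERF1, TINF2 and ACD (log2 CPM, 24 libraries, description only). After the means of the 6 groups of treatment and testes were taken out, the furthest from 0 was TERF2IP with TINF2 at -0.52. The genes in these values share libraries and depth, and TERF1 and ACD rest on the fewest counts.

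The genes whose pattern was most like that of TERF2 came from outside the telomere lists. Among 8278 genes the 5 with a symbol and the highest r over 24 libraries were THEM5 (0.93), PEX5 (0.89), SOAT2 (0.89), MAPK4 (0.89) and DHRS4 (0.88). Over the 16 libraries without Sustanon their r was 0.95, 0.92, 0.87, 0.88 and 0.90. THEM5, MAPK4 and DHRS4 were, like TERF2, picked by the study on these samples. THEM5 is an acyl-CoA thioesterase, PEX5 the import receptor of peroxisomes, SOAT2 an enzyme that esterifies cholesterol, MAPK4 an atypical kinase and DHRS4 a peroxisomal reductase.

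For all 5 the mean CPM of the 6 groups of treatment and testes was lowest in control pigs without testes. The 5 were chosen for their r with TERF2 over these same libraries. This shared pattern and the r without Sustanon therefore restate the choice and test nothing. PEX5 had 64.7 to 84.2 CPM there, 139 and 177 CPM in control boars, 88.8 to 129 CPM in Myodin pigs without testes and 115 to 163 CPM in Sustanon pigs without testes. THEM5 had 0 to 0.28 CPM in control pigs without testes, at most 4 counts in a library, and 18.3 and 24.8 CPM in control boars. With Myodin THEM5 reached 0.62 to 4.74 CPM in pigs without testes and 2.38 to 5.27 CPM in boars. PEX5 had 96.9 to 150 CPM in Myodin boars. TERF2 and PEX5 in the 3 Myodin boars thus overlapped the 2 control boars, and THEM5 did not. The share of all genes that lay apart in these few pigs is not given here, so nothing is read from the THEM5 ranges.

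The next tested gene on each side of TERF2 on chromosome 6 passed neither the Sustanon nor the boar comparison. CYB5B, a cytochrome b5 of the outer mitochondrial membrane, lies 47.7 kb away on one side, and NIP7, a ribosome assembly factor, 10.3 kb away on the other. The Sustanon difference was -0.06 for CYB5B (adjusted p = 0.827) and -0.03 for NIP7 (adjusted p = 0.946). Between boars and the rest without Sustanon they differed by 0.19 and 0.37 (adjusted p = 0.375 and 0.184). Their r with TERF2 over 24 libraries was 0.19 and 0.09. Of the 10 nearest tested genes, 5 on each side, 2 passed the Sustanon comparison (5.07% of all genes did) and 2 the boar comparison (4.95%). These genes are named after their values were seen. WWP2, a ubiquitin ligase, fell in both (-0.57, adjusted p = 0.0447, and -0.80, adjusted p = 0.000153 by edgeR), NQO1, a quinone reductase, fell with Sustanon (-1.34, adjusted p = 0.0169), and UTP4, a ribosome assembly factor, rose in boars (0.64, adjusted p = 0.0115). Within the Myodin libraries alone WWP2 (-0.81, adjusted p = 0.00887) and UTP4 (0.73, adjusted p = 0.0454) were the 2 of 10 that passed, where 2.43% of all genes did. Both of these calls were lost with sows left out, where 0 genes passed in all. With 1 of the Myodin boars left out, 1 gene passed in all, so at least 1 of the 2 calls was lost there. Without the 3 control libraries the Sustanon calls of WWP2 and NQO1 were lost (-0.46 and -1.09, adjusted p = 0.282 and 0.154), in a setting where 0 genes passed in all. The r with TERF2 was -0.70 for WWP2, -0.74 for NQO1 and 0.37 for UTP4. The WWP2 Sustanon call held in 9 of the 24 fits with a library left out and in 7 of the 11 other alternatives. Its call in boars without Sustanon held in 24 of 24 and in 9 of the 10 others (highest adjusted p = 0.0716). The UTP4 call in boars without Sustanon held in 23 of 24 and in 7 of the 10 others (highest adjusted p = 0.239). Its losses included those without control boar 27 (0.0937), in control libraries alone (0.224) and without sows (0.113).

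The other telomere genes were taken as lists. None of their 28 tested genes passed the Sustanon or the Myodin comparison, where 5.07% and 0.0% of all genes did, so a count of 0 is near the background. In boars against the rest without Sustanon 3 of 28 passed, where 4.95% of 8754 genes did. Of the telomerase genes, 7 of 13 were measured, among them the RNA-binding subunit DKC1 and the assembly factor RUVBL2, and 0 passed in any of the comparisons. Their median was -0.18 with Sustanon and 0.17 in boars against the rest without Sustanon, beside -0.01 and -0.004 over all genes. Of the DNA break sensors, such as ATM and the MRE11, RAD50 and NBN complex that TERF2 restrains, 7 of 11 were measured and 0 passed (medians -0.03 and -0.13). The 3 CST genes, 9 cell division genes and TERT, the catalytic subunit of telomerase, were not analysed here.

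Of the shelterin-associated factors, 8 of 23 were measured, and 1 rose and 1 fell in boars against the rest without Sustanon. SLX4, a scaffold for nucleases that TERF2 brings to telomeres, was at 4.42 to 6.67 CPM in the 5 boars and 2.32 to 4.45 CPM in the 11 other pigs. The lowest boar lay inside the range of the other pigs. The difference was 0.81 (SE 0.19, adjusted p = 0.0148 by edgeR). The call held in 22 of the 24 fits with a library left out and in 7 of the 10 other alternatives (adjusted p up to 0.167). The losses included those without control boar 25 (adjusted p = 0.0881), without control boar 27 (0.0579), in control libraries alone (0.085) and without sows (0.0788).

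TERB2, a meiotic factor that joins telomeres to the nuclear envelope, was at 0.38 to 1.31 CPM in the boars and 1.02 to 2.75 CPM in the others. It is near the lower limit of what these libraries count. The difference was -1.30 (SE 0.37, adjusted p = 0.0464 by edgeR). The call held in 10 of the 24 fits with a library left out. It held in 3 of the 10 other alternatives (differences from -1.35 to -0.70, adjusted p up to 0.422). It was lost without the 3 control libraries (0.0867). Of the telomeric chromatin genes, 6 of 8 were measured, and SIRT6, a deacetylase that acts on telomeric histones, rose by 0.49 (SE 0.12, adjusted p = 0.0238). SIRT6 was at 12.99 to 16.1 CPM in the boars and 7.27 to 13.5 CPM in the others. Its call held in 22 of the 24 fits with a library left out and in 7 of the 10 other alternatives (adjusted p up to 0.342). The losses included those without control boar 25 (0.0557) or 27 (0.193), in control libraries alone (0.335) and without sows (0.168).

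**Figure D4:**
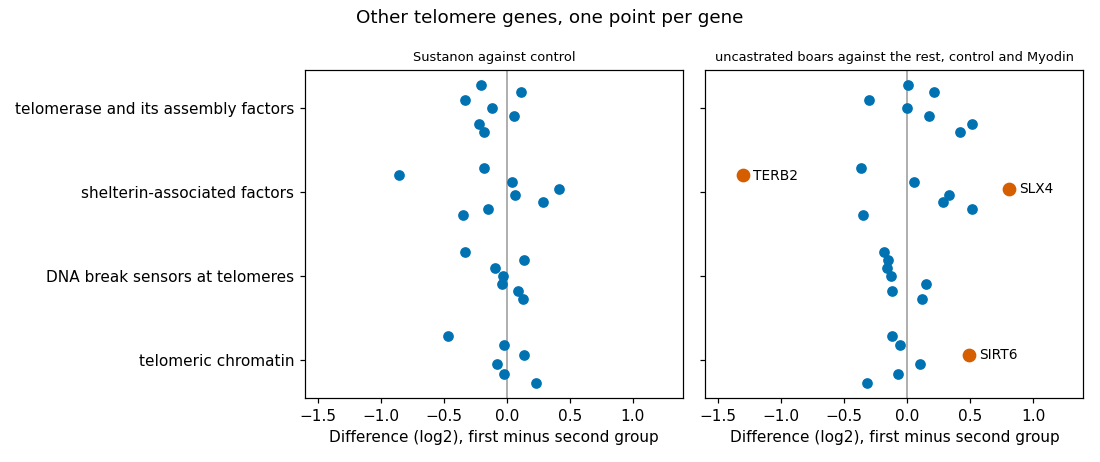
Log2 difference (horizontal axis, first minus second group) of each other measured telomere gene, by list, in Sustanon against control and in uncastrated boars against the rest without Sustanon; orange points have an adjusted p under 0.05. No gene is orange on the left, and SLX4, SIRT6 and TERB2 are on the right.

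Markers of other liver cell types were read beside TERF2. In bulk liver, fewer cells of a type and less RNA per cell cannot be told apart. In the Sustanon comparison, where 5.07% of all genes passed, 0 of 4 hepatocyte, 0 of 3 bile duct, 0 of 5 leukocyte, 0 of 4 stellate and endothelial and 0 of 3 red blood cell markers passed, with medians of 0.21, -0.21, -0.22, 0.21 and -0.38. In boars against the rest without Sustanon, where 4.95% of all genes passed, 0 of these 19 did, and the medians were -0.18, -0.18, 0.20, 0.06 and -0.88. The summed red blood cell markers ran from 166 to 1783 CPM in the 5 boars and from 534 to 2418 CPM in the 11 other pigs.

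In Myodin against control castrated boars and sows, where TERF2 was 1.65-fold higher, 0 of the 19 markers passed (0.0963% of all genes did), with medians of 0.05, -0.59, -0.15, -0.04 and -0.43 in the same order. The summed bile duct markers were at 17.6 to 23.6 CPM in the 5 Myodin pigs and 25.5 to 38.2 CPM in the 6 control pigs. These control pigs include the libraries with conflicting Y-linked counts. The share of all genes that lay lower in this way is not given here, so nothing is read from these ranges. In boars against the rest within the Myodin libraries the 3 red blood cell markers had a median of -1.395, and their sum was 166 to 936 CPM in the 3 boars and 534 to 2323 CPM in the 5 other pigs.

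Of the 5 leukocyte markers in that comparison, 3 had values above 0 and 2 below (median 0.25), and 1 passed, where 2.43% of all genes did. CD2, a T cell surface protein, rose by 1.03 in boars (23.1 ± 10.8 against 11.4 ± 2.11 CPM, adjusted p = 0.0497 by edgeR), a call that held in 5 of 24 fits with a library left out. The part of these cell types in the TERF2 and TERF2IP values was not tested.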

How the data were processed

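Poly-A RNA of 24 pig livers was sequenced from stranded libraries. The authors trimmed the reads, mapped them with STAR 2.5 to the pig genome (Sscrofa11.1 in the submitters' processing notes) and deposited raw counts per gene and, in a second table, log2 values of TPM with 1 added; the counting tool and the handling of shared reads are not given in the sources used here. Groups follow the labels.

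From the deposited counts, edgeR 4.0.16 in R 4.3.3 (filterByExpr, TMM, quasi-likelihood test, two-sided, Benjamini-Hochberg adjustment over all genes tested) fitted the 3 treatments, and treatment by testes, over all 24 libraries. CPM are TMM-scaled, and TPM were read back from the deposited log2 values. The scripts were tested on simulated data. DESeq2 1.42.0, RLE scaling, limma 3.58.1 on the log2 values, no count filter, class as a covariate, subsets of classes and leaving out each library were tried; 2 contrasts and 3 subsets of libraries were added after the data were seen. Gene positions and names came from a RefSeq gene table of Sscrofa11.1.

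TERF2 is tested only within the Myodin libraries; its tests in the other comparisons, though planned in part, are left out because they use libraries on which it was chosen. The members and lists were chosen with earlier results of these data known. Named genes were the members, list genes with an adjusted p under 0.05 in any of the 5 comparisons of levels, the 5 genes most correlated with TERF2 and its next tested neighbours. Those that passed among the 5 nearest tested genes on each side were also named, after their values were seen.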

Additional observations from a re-analysis of the deposited data

Results flagged for a closer look

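In 30 tests, each of 1 shelterin gene in 1 group of 5 to 8 libraries, the highest or lowest value was examined. Its gap to the nearest neighbour was taken as a share of the group's range. Some of the groups share libraries, so the tests are not independent. Chance passes about 1 in 20 such tests, and 6 passed. TERF1 in Sustanon sow 4 was at 10.6 CPM, with the other 7 Sustanon libraries at 14.5 to 18.1 CPM (share 0.58), and the same library stood apart among the 6 Sustanon castrated boars and sows (0.742). TERF1 in the library labelled control castrated boar 15, whose Y-linked counts go against its label, was at 11.09 CPM against 15.7 to 19.1 CPM in the other 5 control pigs without testes (0.639). TINF2 in Sustanon castrated boar 3 was at 67.3 CPM against 81.9 to 93.5 CPM (0.597). TINF2 in Myodin sow 10 was at 93.0 CPM against 75.4 to 79.5 CPM in the other 4 Myodin castrated boars and sows (0.748). ACD in Sustanon uncastrated boar 19 was at 9.09 CPM against 13.9 to 15.8 CPM (0.763). No TERF2 or TERF2IP value stood apart in this way.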

How the results depend on the processing

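No paired analysis was possible because each replicate number is that of 1 pig and no number recurs across groups. No shelterin gene passed a test under any alternative run, TERF2 being tested within the Myodin libraries only (adjusted p from 0.128 to 0.651). Of the member values under an alternative, TERF2 with Myodin over all classes was 0.25 without the 3 control libraries, against 0.45 with them. Those 3 are all labelled as without testes, and the uncastrated control boars stayed in. In castrated boars and sows alone the Myodin value was 0.73 without them and 0.72 with them. TERF2IP in Myodin boars was 0.19 without sows. The TERF2 Sustanon value was 0.86 over all classes and 1.26 in castrated boars and sows alone. It was 1.26 there too without the 3 control libraries with conflicting Y-linked counts. The cause of these shifts was not tested.

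Counts over all genes moved more. Sustanon against control called 420 genes, 129 with a log2 fold change of at least 1 as well, 628 by DESeq2, 598 with class as covariate, 557 with the groups compared alone, 549 in castrated boars and sows only, 330 by limma, 364 with no count filter, 272 without control castrated boar 15, 96 without control sows 16 and 18, 0 without all 3, 198 in castrated boars and sows only without the 3, and 198 to 613 with 1 library left out. Myodin against control called 0 genes, 8 in castrated boars and sows only and 9 by DESeq2. Sustanon against Myodin called 55, 17 with the fold, 339 in castrated boars and sows only, 390 with class as covariate, 275 by DESeq2, 9 with the groups compared alone, 36 with no count filter, 29 without the 3 libraries, and 0 to 541 with 1 left out. Boars against the rest without Sustanon called 433, 110 with the fold, 125 in control libraries only, 34 in these without the 3, 652 by DESeq2, 20 without sows, and 86 (without control boar 27) to 645 with 1 left out. Within Myodin the count was 213, 110 with the fold, 449 by DESeq2, 75 by limma, 140 with no filter, 0 without sows (996 at an unadjusted p under 0.05), 139 without the 3 libraries, and 1 (without Myodin boar 23) to 783 (without Myodin boar 22) with 1 left out. The difference of the Sustanon effect called 4, 37 by DESeq2, 7 by limma, 2 without the 3 libraries, 2 without control castrated boar 15, and 0 to 6 with 1 left out. The difference of the boar effect called 8, 95 by DESeq2, 13 by limma, 3 without the 3 libraries, and 2 to 192 with 1 left out. Myodin in castrated boars and sows called 8, 5 with the fold, 102 by DESeq2, 4 by limma, 0 without the 3 libraries, and 2 to 13 with 1 left out. The ratio of TERF2 to TERF1 mean levels was 4.35 in TPM and 6.26 in CPM, which is not corrected for length. TERB2 and THEM5 rest on few counts.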
